A study of Mus musculus with 7 samples.

Results

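The S100 genes described here were 10 members of a family of small calcium-binding proteins: S100a3, S100a4, S100a6, S100a7a, S100a8, S100a9, S100a10, S100a11, S100a14 and S100a16. They were taken by name from 19937 genes. The rule for the choice used no measured value, but earlier results of these data were known when it was made. Their RNA was measured in Iqgap1 knockout and wild-type mice of mixed C57BL/6 and 129 background. All groups were labelled with topical 4OHT (4-hydroxytamoxifen, an oestrogen receptor ligand that is applied to activate tamoxifen-inducible fusion proteins), for 0 days or 6 days. Knockout had 2 arrays at day 0 and 2 at day 6. Wild type had 1 array at day 0 and 2 at day 6. The Iqgap1 protein is a scaffold for MAP kinases downstream of Ras, and the study's title is about interfering with that scaffolding in tumours driven by Ras. The labels called the tissue only mouse tissue, named no inducible protein or transgene, and did not say whether replicates were separate mice. The p-values below therefore measure the spread between these arrays, which may be technical.

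S100 proteins bind calcium through paired EF-hand loops and mostly act as dimers. Inside cells they bind partners such as annexins and the cytoskeleton. S100a8 and S100a9, released from stressed epithelium or from neutrophils, act as alarmins that signal through Tlr4 and Ager (RAGE). Most of the genes lie in one cluster beside the late epidermal differentiation genes, and in epidermis S100a8 and S100a9 are low at rest and strongly induced in wounded, inflamed or hyperproliferative skin.

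Several facts of the arrays bear on what follows. Iqgap1 read 8.58 to 9.02 (log2 RMA value) on the 4 knockout arrays and 9.94 to 10.59 on the 3 wild-type arrays, with no overlap. Xist, the X-inactivation RNA, was high on 2 arrays, wild-type replicate 1 of day 0 (11.15) and of day 6 (10.30). Genes without signal (Xist and Y-linked genes on arrays lacking them) read 3.50 to 4.25. Keratinocyte markers were high on every array (list mean over 11 genes 10.7 to 11.9, with Krt5 between 12.14 and 12.79). The single wild-type day 0 array stood apart: its mean over 15 hair shaft and cuticle genes was 10.4, against 5.35 to 6.54 on the other 6, and over 6 melanocyte markers 10.5, against 5.93 to 6.81. From day 0 to day 6, markers of several other cell types were lower over both genotypes: 6 of 8 adipocyte, 7 of 9 skeletal muscle, 4 of 10 fibroblast, 2 of 4 Schwann cell and 4 of 6 Langerhans and dendritic cell markers fell by limma, and 0 rose in these lists. Over all genes 5.62% fell and 5.85% rose in that comparison. In whole tissue, fewer cells of a type and less RNA per cell cannot be told apart, and the part of these shifts in the S100 values was not tested.

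The promoters of S100a8, S100a9 and S100a7a are shown because these were the S100 genes whose RNA rose with day in at least 1 genotype. RefSeq (GRCm38.p6) gave upstream sequence for 8 of the 10 genes, all but S100a10 and S100a14. Each line holds the 250 bases before the annotated start, 5′ to 3′ on the gene's strand: chr3:90668821-90669070 on the plus strand for S100a8, chr3:90695722-90695971 on the minus strand for S100a9 and chr3:90654052-90654301 on the plus strand for S100a7a. Capitals mark matches to the letters searched.
S100a8: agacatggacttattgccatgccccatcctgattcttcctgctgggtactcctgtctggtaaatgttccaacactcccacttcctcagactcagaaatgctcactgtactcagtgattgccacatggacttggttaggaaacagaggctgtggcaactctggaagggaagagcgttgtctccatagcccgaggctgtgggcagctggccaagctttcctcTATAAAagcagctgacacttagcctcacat
S100a9: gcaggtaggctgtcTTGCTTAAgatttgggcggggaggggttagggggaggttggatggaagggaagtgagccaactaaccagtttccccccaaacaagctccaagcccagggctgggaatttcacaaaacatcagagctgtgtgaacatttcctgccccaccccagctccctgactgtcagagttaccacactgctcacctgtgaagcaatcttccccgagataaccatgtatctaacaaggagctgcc
S100a7a: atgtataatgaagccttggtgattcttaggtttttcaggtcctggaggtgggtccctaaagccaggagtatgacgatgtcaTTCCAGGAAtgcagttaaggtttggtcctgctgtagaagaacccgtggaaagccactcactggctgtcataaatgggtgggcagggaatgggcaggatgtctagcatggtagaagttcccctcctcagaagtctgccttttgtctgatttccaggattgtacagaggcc
Letters searched on both strands were TGANTCA (AP-1), TTGCNNAA (C/EBP), and TTCNNNGAA (STAT). The TATA box was searched as TATAAA, also on both strands, and no match shown overlaps another. S100a8 held TATAAA beginning 30 bases before the start. On either strand and at any position, that string was found in 12.4% of 32807 promoters of this length. S100a9 held a C/EBP match 236 bases before the start (9.57% of promoters hold one), and S100a7a a STAT match 169 bases before it (7.02%). No AP-1 match (6.75% of promoters) lay in these 3 windows. Although S100a8 and S100a9 moved together on the arrays, the searched letters did not place a shared match in their 2 windows. A match here describes letters only and shows no binding.

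S100a8 and S100a9, which encode the 2 chains of calprotectin, were the S100 genes that rose at day 6 in both genotypes. S100a8 read 6.71 and 7.99 on the knockout arrays and 7.48 on the wild-type array of day 0. The day 6 readings were 11.51 and 11.50 for knockout and 11.98 and 11.65 for wild type, so that all 4 day 6 arrays lay above all 3 day 0 arrays by a wide gap. Over both genotypes S100a8 RNA was 18.7-fold higher at day 6, a log2 difference of 4.23 ± 0.30 (SE, limma, adjusted p = 0.000946). At day 0 S100a9 read 7.09 and 8.31 on the knockout arrays and 8.20 on the wild-type array. Its day 6 values were 11.72 and 11.52 for knockout and 12.14 and 11.75 for wild type, again without overlap between days. The rise of S100a9 was 14.4-fold, a log2 difference of 3.85 ± 0.29 (SE, limma, adjusted p = 0.00118). Within 1 genotype the rise was of like size: S100a8 rose by 4.16 ± 0.39 in knockout and 4.33 ± 0.47 in wild type, and S100a9 by 3.92 ± 0.38 and 3.74 ± 0.46 (log2, SE). Knockout minus wild type, the day changes differed by -0.18 for S100a8 (95% interval -1.63 to 1.27) and 0.18 for S100a9 (-1.24 to 1.60), so differences of about the size of these bounds were not detectable with 7 arrays.

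**Figure D1:**
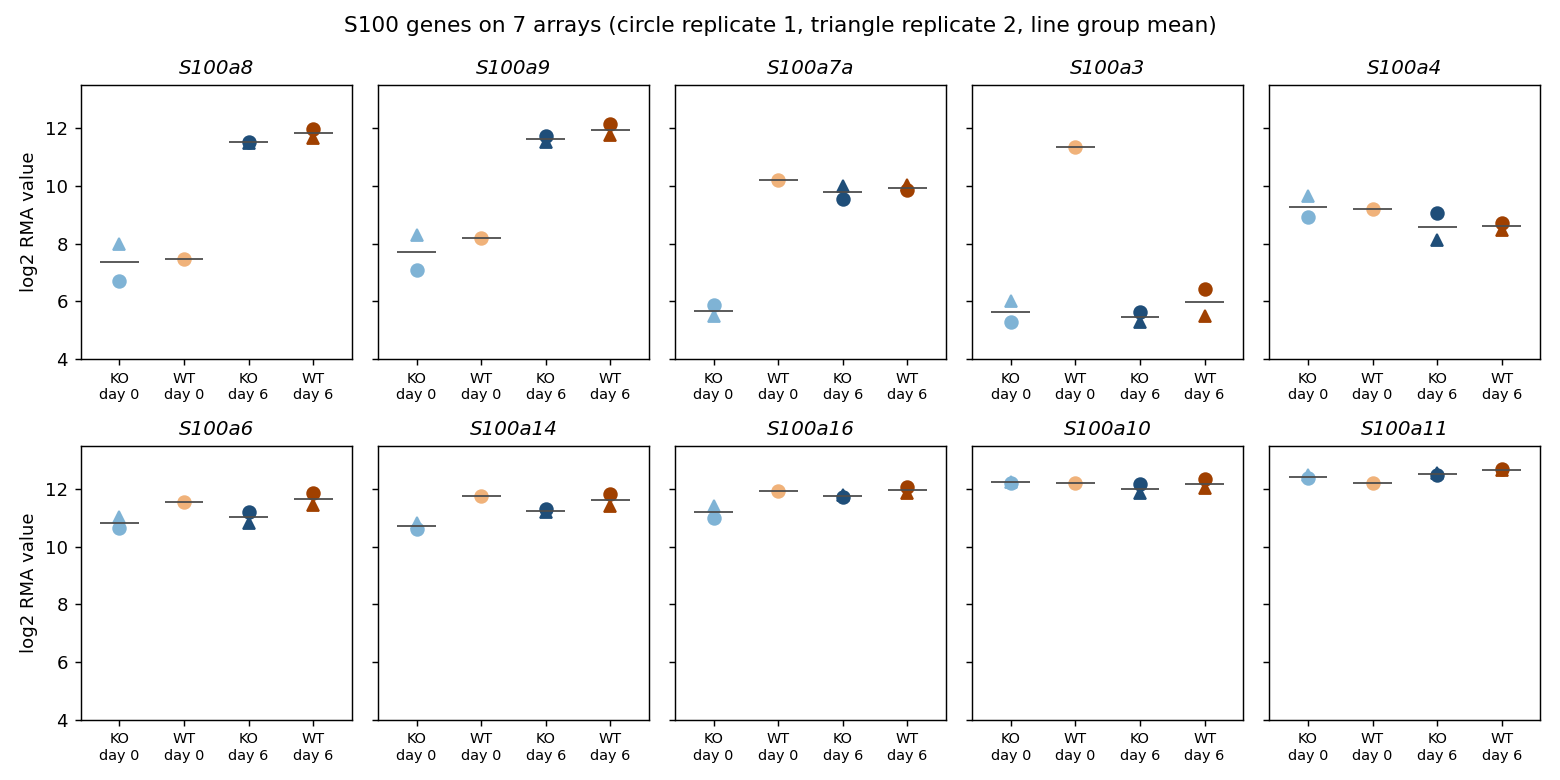
Log2 RMA value of each S100 gene (vertical axis) in the 4 groups (horizontal axis); circles are replicate 1, triangles replicate 2 and the line is the group mean. S100a8 and S100a9 sit between 6.71 and 8.31 on day 0 arrays and between 11.50 and 12.14 on day 6 arrays, S100a7a is low only on the 2 knockout day 0 arrays, and S100a3 is high only on the wild-type day 0 array.

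Among the day 0 arrays, knockout replicate 2 had the higher S100a8 and S100a9 values of the knockout pair, by more than 1 log2 unit each. The same array had higher keratins of activated keratinocytes: Krt6b read 11.40 there and 7.54 on replicate 1, and Krt16 read 11.53 and 9.59. It also had the highest day 0 mean of 16 neutrophil markers, at 6.01, against 5.46 on replicate 1 and 5.26 on the wild-type array. Of the 4 keratins of hyperproliferative epidermis, 3 rose with day over both genotypes, against 5.85% of genes, and 0 fell, against 5.62%. Krt6a rose by 1.14 ± 0.15 (adjusted p = 0.00667), Krt16 by 3.17 ± 0.60 (0.0214) and Krt6b by 4.41 ± 0.98 (0.0349) on the log2 scale (SE, limma). Their list mean was 9.50 to 11.6 at day 0 and 12.5 to 12.6 at day 6. Krt17, the fourth gene, differed by 0.24 (adjusted p = 0.33).

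Neutrophils carry large amounts of S100a8 and S100a9, so their markers were set beside them. Of 16 measured neutrophil markers 2 rose, Mmp9 by 4.45 ± 0.49 (adjusted p = 0.00392) and Trem1 by 1.78 ± 0.44 (adjusted p = 0.0466), and 0 fell (limma, log2, SE). Over all genes 5.85% rose and 5.62% fell. With an unadjusted p under 0.05 there were 8 of the 16, against 26.4% of genes. The median difference of the 16 was 0.62, against 0.06 over all genes. In wild type 3 rose, Mmp9, Mmp8 and Cxcr2, against 3.51% of genes, with a median of 1.00 over the list. In knockout 1 rose, Mmp9, against 7.24% of genes, with a median of 0.33. The list mean was 5.26 to 6.01 at day 0 and 5.99 to 7.16 at day 6. Mmp9, a gelatinase, is also made by keratinocytes. In 5 of the 16 all day 6 arrays lay above all day 0 arrays, against 11.9% of genes. Among them were Cd177, a neutrophil surface protein (4.94 to 5.26 at day 0 and 5.57 to 6.96 at day 6, adjusted p = 0.0763), and the granule gene Ngp (4.45 to 4.59 and 4.66 to 8.18, adjusted p = 0.184). The chemokine receptor Cxcr2 read 6.48 to 9.25 and 9.14 to 9.64 (adjusted p = 0.0853). Of the granule genes of neutrophil precursors, Mpo read 4.65 to 5.76, Elane 4.60 to 5.30 and Prtn3 4.47 to 4.88 over all arrays. The lineage marker Ly6g read 4.11 to 5.59. Mmp8, a collagenase of neutrophil granules, read 4.89 to 6.34 at day 0 and 5.95 to 9.22 at day 6 (adjusted p = 0.128). Retnlg, abundant in mature mouse neutrophils, read 6.17 to 7.13 and 6.58 to 10.35 (adjusted p = 0.201). For both genes the highest value was on wild-type day 6 replicate 1, where S100a8 and S100a9 were also highest. The lowest day 6 list mean, 5.99, was on knockout replicate 1, and the highest of day 0, 6.01, was on knockout replicate 2. S100a8 read 11.51 and 7.99 on those arrays. Of 11 macrophage and monocyte markers 0 passed (limma, 2 at an unadjusted p under 0.05, against 26.4% of genes), with a median difference of -0.17. The part of neutrophils and of activated keratinocytes in the S100a8 and S100a9 rise was not tested.

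**Figure D2:**
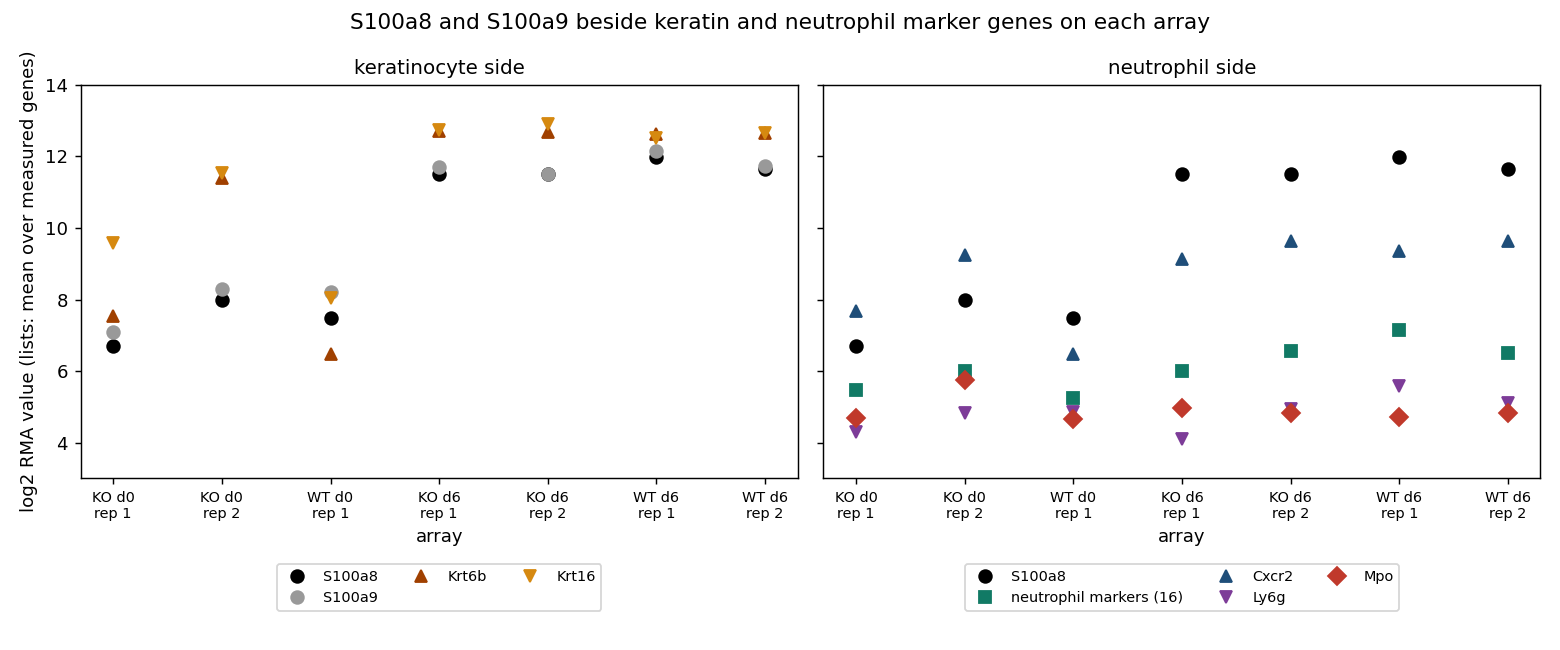
Log2 RMA value on each array (horizontal axis) of S100a8 and S100a9 with the keratins Krt6b and Krt16 (left) and of S100a8 with Cxcr2, Ly6g, Mpo and the mean of 16 neutrophil markers (right). Each point is 1 array. Krt6b and Krt16 are higher on knockout day 0 replicate 2 (11.40 and 11.53) than on the other day 0 arrays. So are Cxcr2 (9.25) and the neutrophil marker mean (6.01). Ly6g and Mpo stay below 6 on every array.

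S100a7a, the mouse relative of psoriasin, rose in knockout, while its day difference in wild type did not pass. It read 5.87 and 5.49 on the knockout day 0 arrays and 10.21 on the wild-type day 0 array. At day 6 it read 9.56 and 9.98 in knockout and 9.86 and 10.01 in wild type. The 2 knockout day 0 arrays were thus the low ones, and the other 5 lay within 9.56 to 10.21. In knockout the rise was 17.1-fold, a log2 difference of 4.10 ± 0.22 (SE, limma, adjusted p = 0.000308). In wild type the difference was -0.27 ± 0.27 (adjusted p = 0.679), and the day changes differed between genotypes by 4.37 ± 0.34 (SE, limma, adjusted p = 0.00197). Over both genotypes the difference of 2.35 ± 0.83 did not pass (adjusted p = 0.128). Without the wild-type day 0 array the pooled comparison becomes that within knockout (4.10, adjusted p = 0.000308).

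S100a3, known as a protein of the hair cuticle, was high on 1 array only. It read 11.34 on the wild-type day 0 array. Knockout read 5.29 and 6.00 at day 0 and 5.63 and 5.27 at day 6, and wild type at day 6 read 6.44 and 5.48. The wild-type day 0 array was thus alone, with the highest of the other 6 at 6.44. In wild type S100a3 fell by 5.38 ± 0.45 on the log2 scale (SE, limma, adjusted p = 0.00119), and in knockout the day difference was -0.20 ± 0.37 (adjusted p = 0.776). The 2 day changes differed by 5.18 ± 0.58 (SE, limma, adjusted p = 0.00877). Pooled over genotypes, the day difference of -2.27 ± 1.01 did not pass (adjusted p = 0.213).

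The hair shaft and cuticle genes shared the wild-type day 0 peak of S100a3: 14 of 15 were highest on the wild-type day 0 array, against 20.3% of all genes and 2 of the 10 S100 genes (S100a3 and S100a7a). In knockout 4 of the 15 rose with day (limma), against 7.24% of genes, and S100a3 did not. In wild type 12 of the 15 fell with day, against 3.61% of genes, and 0 rose, against 3.51%. At day 0 all 15 were lower in knockout, against 5.86% of genes (limma). Both counts rest on the single wild-type day 0 array. Krt33a, a hair keratin, read 12.64 on that array and 4.60 to 6.43 on the others. Melanocyte markers were also highest there in 6 of 6 cases. Wild type at day 0 is this 1 array, so genotype, hair and melanocyte signal and the array itself cannot be told apart for S100a3 or S100a7a at day 0. The array also carries Xist signal. With a term for it the day 0 difference was -4.73 for S100a3 and -4.69 for S100a7a (log2, limma). In that fit the term is set only by the difference between the 2 wild-type day 6 arrays. It therefore cannot separate Xist signal from anything else that differs between those 2 arrays. The other array with Xist signal, wild-type day 6 replicate 1, read 6.44 for S100a3. S100a7a differed from S100a3 at day 6, where it read 9.56 or more on all 4 arrays while the hair gene mean was 6.05 to 6.54. Tgm3, a transglutaminase in the hair list that is also made in differentiating epidermis, had that same split, at 6.11 and 6.59 on the knockout day 0 arrays and 10.24 to 11.45 on the other 5.

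**Figure D3:**
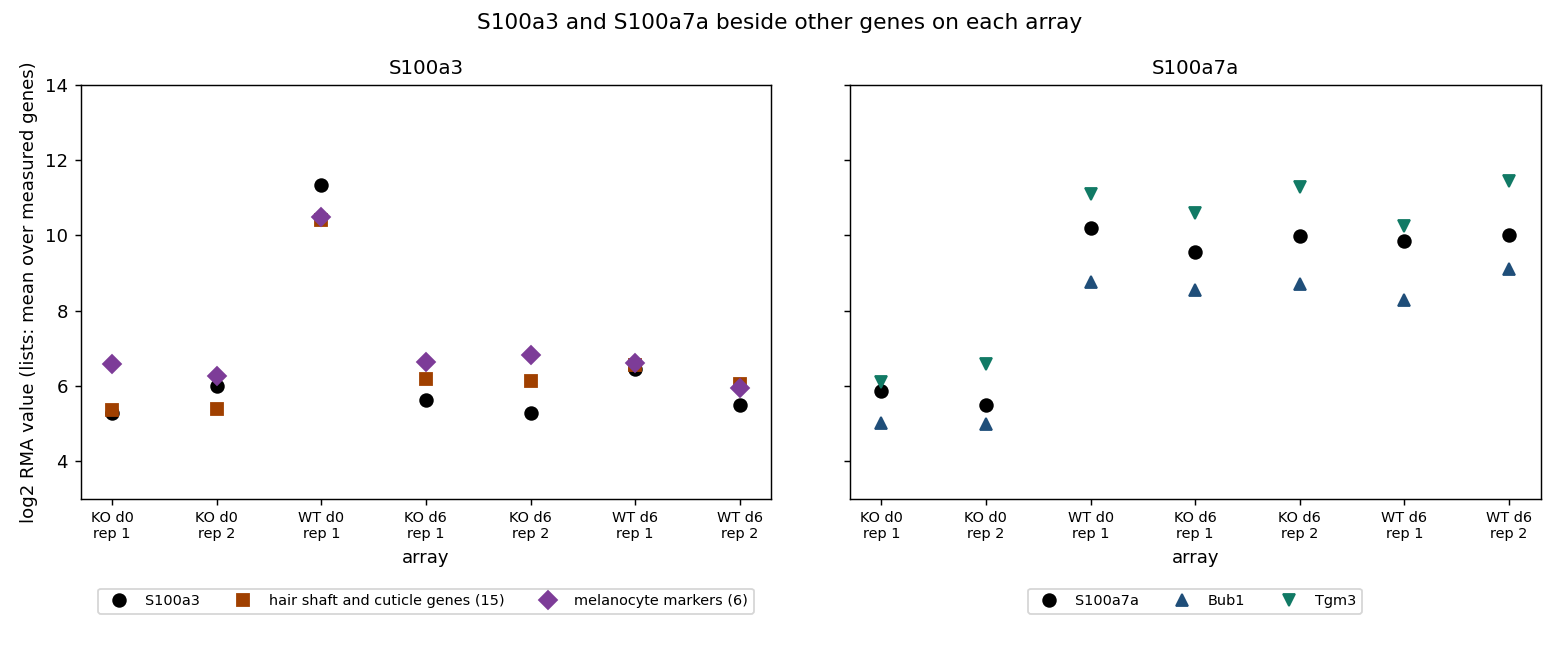
Log2 RMA value on each array (horizontal axis) of S100a3 with the means of 15 hair shaft and cuticle genes and 6 melanocyte markers (left), and of S100a7a with Bub1 and Tgm3, its 2 nearest genes (right). Each point is 1 array. The left panel has its high values on the wild-type day 0 array (11.34, 10.4 and 10.5), and the right panel has its low values on the 2 knockout day 0 arrays.

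S100a14, S100a16 and S100a6 are S100 genes of epithelium, the last also known as calcyclin, and their values were lower in knockout by amounts under or near 1 log2 unit. S100a14 read 10.60 and 10.82 (knockout) and 11.76 (wild type) at day 0, and 11.30 and 11.19 against 11.82 and 11.41 at day 6. S100a16 read 10.99 and 11.40 against 11.95 at day 0, and 11.72 and 11.78 against 12.07 and 11.87 at day 6. S100a6 read 10.63 and 11.04 against 11.56 at day 0, and 11.21 and 10.83 against 11.88 and 11.43 at day 6. For each of the 3 genes all 4 knockout arrays lay below all 3 wild-type arrays, which holds for 3 of the 10 S100 genes and 7.46% of all genes. The difference over both days was -0.64 ± 0.19 for S100a14, -0.43 ± 0.17 for S100a16 and -0.67 ± 0.18 for S100a6 (log2, SE), and 0 passed (limma, adjusted p = 0.239, 0.26 and 0.239).

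The size of these differences moved when Xist signal was modelled or its 2 arrays were left out. With a term for Xist signal they were -0.24 for S100a14, -0.19 for S100a16 and -0.39 for S100a6, and without the 2 arrays they were -0.17, -0.12 and -0.41. Both arrays are wild type, and they include the only wild-type array of day 0. Without them the comparison becomes that of the knockout day 6 arrays with wild-type day 6 replicate 2. These shifts therefore cannot be tied to Xist signal itself. At day 0 S100a14 was lower in knockout by limma (-1.04 ± 0.24, SE, adjusted p = 0.0334). That call was lost with the Xist term (-0.63), which in this fit is set only by the 2 wild-type day 6 arrays. It was also lost without either knockout day 0 array (-0.93 without replicate 1 and -1.15 without replicate 2). S100a16 (-0.75, adjusted p = 0.0786) and S100a6 (-0.72, adjusted p = 0.155) did not pass at day 0. In knockout, S100a16 differed with day by 0.56 ± 0.19 (adjusted p = 0.102) and S100a14 by 0.53 ± 0.20 (adjusted p = 0.125), and in wild type by 0.02 and -0.14.

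S100a4, a gene of motile mesenchymal and immune cells, read 8.93 and 9.64 (knockout) and 9.20 (wild type) at day 0, and 9.05, 8.12, 8.73 and 8.48 at day 6. The days overlapped through the first knockout array of each, and the difference of -0.66 ± 0.27 did not pass (limma, adjusted p = 0.181). S100a10, the partner of annexin A2, had the smallest standard deviation of the 10 over the arrays (0.154, against 0.157 for S100a11): 12.21 and 12.24 (knockout) and 12.21 (wild type) at day 0, and 12.16, 11.87, 12.33 and 12.02 at day 6. Its day difference was -0.14 ± 0.14 (adjusted p = 0.596), and 16.4% of genes had a smaller standard deviation over the 7 arrays. S100a11, which binds annexin A1, read 12.39 and 12.48 (knockout) and 12.22 (wild type) at day 0, and 12.49, 12.54, 12.68 and 12.65 at day 6. All day 6 arrays lay above all day 0 arrays, though the highest day 0 and lowest day 6 values, 12.48 and 12.49, nearly met, and the difference of 0.23 ± 0.13 did not pass (adjusted p = 0.31). A second probe set for S100a11 read 11.71 to 12.18 at day 0 and 12.13 to 12.26 at day 6, where the days overlapped.

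Over both genotypes, 2 of the 10 S100 genes rose with day (S100a8 and S100a9), against 5.85% of all genes, and 0 fell, against 5.62%. That makes 2 of the 10 that passed, against 11.5% (limma). With an unadjusted p under 0.05 there were 4 of the 10, against 26.4% of genes. The median of the 10 differences was 0.25, against 0.06 over all genes. In knockout 3 rose (S100a7a, S100a8 and S100a9), against 7.24% of genes, and 0 fell (9.07%), 3 of 10 in all against 16.3%, and the median was 0.36 against 0.10. In wild type 3 of the 10 passed, against 7.11% of genes: 2 rose (S100a8 and S100a9), against 3.51%, and 1 fell (S100a3), against 3.61%. Of the 10, S100a8, S100a9 and S100a11 had all day 6 arrays above all day 0 arrays, which held for 11.9% of genes, and 0 had them all below (9.66% of genes). The wild-type and knockout day changes come from separate arrays, but wild type rests on 1 array at day 0, whose error is borrowed from the other groups.

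**Figure D4:**
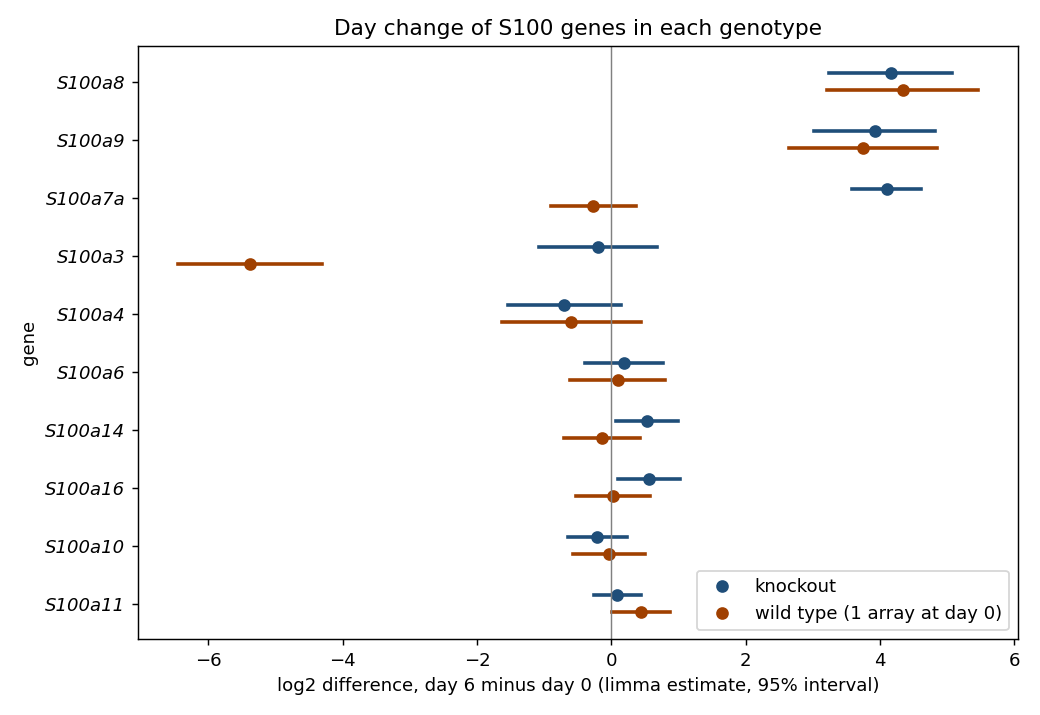
Log2 difference of day 6 minus day 0 (horizontal axis, limma estimate with its 95% interval) for the 10 S100 genes in knockout and in wild type. The S100a8 and S100a9 intervals lie above 2 in both genotypes, S100a7a is near 4 in knockout and near 0 in wild type, and S100a3 is near 0 in knockout and at -5.38 in wild type.

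Between genotypes, 3 of the 10 S100 genes passed at day 0, against 14.4% of genes, and all 3 were lower in knockout, against 5.86%: S100a3 by 5.70 ± 0.45 (adjusted p = 0.00109), S100a7a by 4.53 ± 0.27 (adjusted p = 0.000275) and S100a14 as above (log2 units, SE, limma). None was higher (8.53% of genes were), and all 3 rest on the single wild-type day 0 array. At day 6, 0 of the 10 passed, as did 0 (0%) of the 19937 genes, Iqgap1 included (-1.73 ± 0.20, adjusted p = 0.503, the smallest unadjusted p of all genes). At an unadjusted p under 0.05 there was 1 of the 10, S100a6 (-0.63, limma, adjusted p = 0.801), against 5.93% of genes (1182). In 6 of the 10 both knockout arrays lay below both wild-type arrays at day 6, against 15.7% of genes. These were S100a6, S100a8, S100a9, S100a11, S100a14 and S100a16, and their differences ran from -0.63 to -0.15. The 95% interval of the day 6 difference was -1.23 to 0.60 for S100a8, -1.22 to 0.57 for S100a9 and -0.68 to 0.35 for S100a7a. Over both days 0 of the 10 passed by limma, with 4 at an unadjusted p under 0.05 (S100a3, S100a6, S100a14 and S100a16), against 0 (0%) of all genes and 3729 (18.7%) unadjusted. The contrast of the 2 day changes passed for 2 of the 10, against 3.1% of genes: S100a3 and S100a7a were both higher in knockout (1.76% of genes) and 0 were lower (1.35%). It shares its arrays with the day 0 comparison.

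In the order of the RefSeq genes of GRCm38.p6 on chromosome 3, S100a1, S100a13, S100a14, S100a16, S100a3, S100a2, S100a4, S100a5, S100a6, S100a7a, S100a8 and S100a9 follow each other with 0 other coding genes between them. S100a7l2, not among the genes described here, follows S100a9 with 1 other coding gene between them. S100a11 and S100a10 lie beyond S100a7l2 and a further 54 coding genes. The 3 genes that rose in knockout are thus next to each other at one end of the unbroken run from S100a1 to S100a9, with S100a6 (0.18, adjusted p = 0.673 in knockout) beside them. S100a3, lower at day 6 in wild type, lies between S100a16 (0.02 in wild type) and S100a2, neither of which passed.

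**Figure D5:**
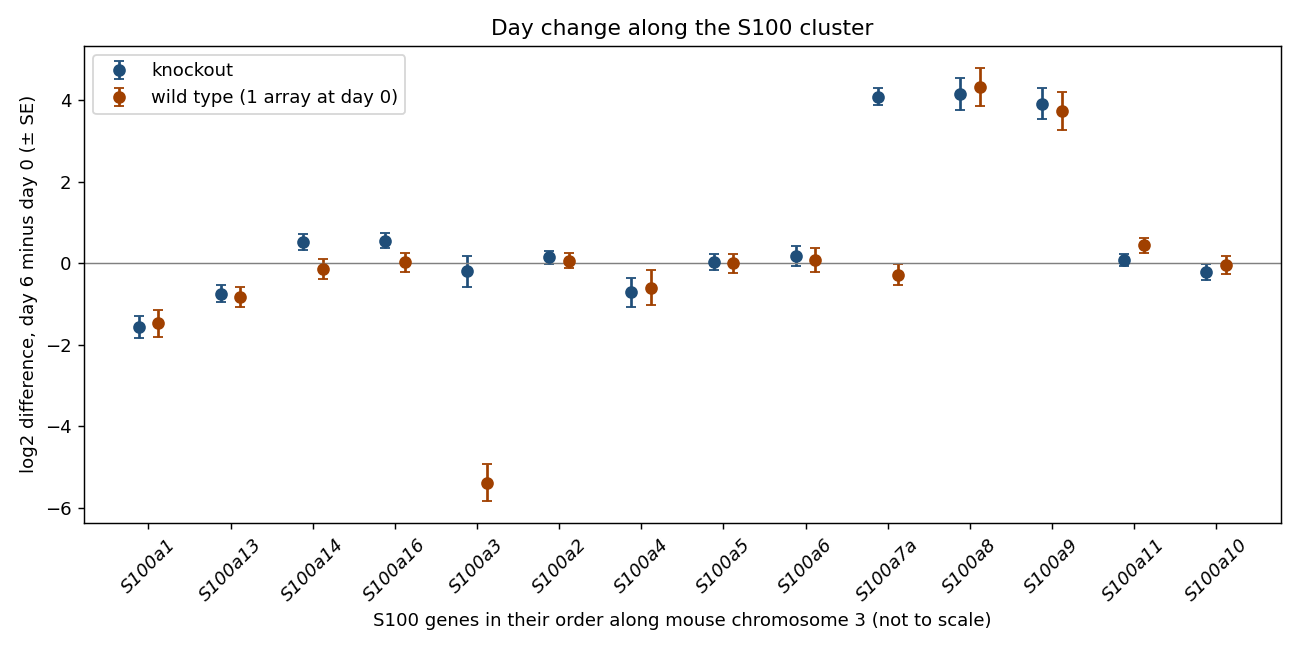
Log2 difference of day 6 minus day 0 (vertical axis, ± SE) in knockout and wild type for 14 S100 genes in their order on chromosome 3 (horizontal axis, not to scale). S100a7a, S100a8 and S100a9, at 4.10, 4.16 and 3.92 in knockout, are neighbours at the right of the main cluster, and S100a1 lies at the other end with values below 0 in both genotypes.

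Of 8 further S100 genes (S100pbp, a binding protein, included), 2 fell with day over both genotypes and 0 rose. Over all genes 5.62% fell and 5.85% rose in that comparison, which is also used for the fused-type genes below. S100a1, an S100 gene of striated muscle, read 10.79 to 11.27 at day 0 and 9.21 to 10.23 at day 6, and fell by 1.52 ± 0.21 on the log2 scale (SE, limma, adjusted p = 0.00797). S100a13 read 8.01 to 8.58 at day 0 and lower on every day 6 array (lowest 7.26), and fell by 0.77 ± 0.15 (adjusted p = 0.0248). S100a2 and S100a5 stayed between 4.01 and 4.80 on all arrays, near the values of genes without signal. Of 6 fused-type S100 genes, which join an S100 domain to long repeats and build the cornified envelope or the hair sheath, Rptn (repetin) rose by 2.79 ± 0.21 (adjusted p = 0.00118) and Flg2 fell by 3.67 ± 0.57 (adjusted p = 0.0114). Tchh, Tchhl1 and Crnn shared the high wild-type day 0 value of S100a3, at 12.02, 10.98 and 12.06 on that array and at most 7.35 elsewhere. Their knockout means at day 0 and day 6 were 5.54 and 6.49 for Tchh, 5.27 and 5.90 for Tchhl1 and 4.49 and 7.07 for Crnn. Those of S100a3 were 5.64 and 5.45. Crnn read 7.35 and 6.79 at day 6 in knockout, against 4.64 and 4.34 at day 0. Hrnr read 9.99 on that array and 11.29 to 12.40 on the others.

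Of 11 annexins 1 rose with day over both genotypes, Anxa3 by 0.93 ± 0.15 (log2, SE, limma, adjusted p = 0.0137), and 0 fell. Over all genes 5.85% rose and 5.62% fell. Anxa2, the partner of S100a10, read 11.86 to 12.22 on all arrays, and Anxa1, the partner of S100a11, read 11.52 to 11.82 at day 0 and 11.93 to 12.22 at day 6 (adjusted p = 0.127). Of 9 receptors and sensors of secreted S100 proteins 0 rose and 1 fell, against the same 5.85% and 5.62% of genes. The scavenger receptor Cd36 fell by 1.56 ± 0.38 (adjusted p = 0.0465). Tlr4, the endotoxin receptor that S100a8 engages, read 8.29 and 8.09 (knockout) and 7.23 (wild type) at day 0, and 6.45 to 7.22 at day 6. It fell by 1.56 ± 0.19 in knockout (limma, adjusted p = 0.00305) and differed by -0.12 in wild type. Ager read 5.38 to 6.04 on all arrays.

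Of 12 measured cytokines listed as possible inducers of epidermal S100 genes, 5 rose with day over both genotypes, against 5.85% of genes. Of the 12, 1 fell, against 5.62%, and the median difference was 1.18. Whether each of them, Tslp included, induces S100 genes was not tested. Tslp, an epithelial cytokine, rose by 5.80 ± 0.44 (adjusted p = 0.00118) from 4.73 to 5.63 at day 0 to 9.39 to 11.42 at day 6. The IL-1 family genes Il1f8, Il1a and Il1f9 rose by 3.07 ± 0.36, 2.03 ± 0.28 and 2.23 ± 0.37 (limma, SE), and Il1f6, of the same family, was the fifth. The gene that fell was Il6, by 2.82. Il17a, the inducer made by T cells, read 4.41 to 5.36 on all arrays. Of 12 transcription factors known to act on S100 genes 1 rose, against 5.85% of genes, and 1 fell, against 5.62%. Junb rose by 0.61 ± 0.12 (adjusted p = 0.0277) and Cebpd fell by 0.78 ± 0.18 (adjusted p = 0.0376). At day 0, 5 of these 12 were higher in knockout, against 8.53% of genes, in the comparison that rests on the single wild-type array. Among them were Fosl1 (1.68 ± 0.20, adjusted p = 0.0043) and Stat3 (1.37 ± 0.23, adjusted p = 0.0127). Of 11 keratinocyte markers 2 rose, Dsg3 by 0.96 ± 0.13 and Krt14 by 0.72 ± 0.15, and 0 fell. Of 6 endothelial markers 1 rose (Emcn) and 0 fell, and of 6 melanocyte markers 1 fell (Mitf) and 0 rose. For these 3 marker lists too the shares over all genes were 5.85% rising and 5.62% falling.

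Likeness between genes was measured as the root mean square difference of log2 values centred on each gene's mean, over the 7 arrays, so that 0 is an identical pattern. These distances describe 7 arrays in 4 groups and were not tested. S100a8 and S100a9 were each other's nearest gene of all named genes (0.216). Next for S100a8 were Slpi (0.276), an inhibitor of neutrophil elastase, and Mmp1b (0.361), and for S100a9 Mmp1b (0.372) and Lce3c (0.38), a late cornified envelope gene. Slpi read 5.93 to 7.35 at day 0 and 10.98 to 11.18 at day 6, with knockout replicate 2 the highest of the day 0 arrays, as for S100a8. Nearest to S100a3 were 3 genes of hair keratin-associated proteins, Krtap16-3 (0.276), Krtap9-3 (0.3) and Krtap19-4 (0.309), of a family whose near-identical copies can share probes. Nearest to S100a7a were Bub1 (0.345), a mitotic checkpoint kinase, Tgm3 (0.419) and Lrat (0.435), which esterifies retinol. Among the 10 S100 genes, S100a14 with S100a16 (0.142) and S100a6 with S100a14 (0.173) were closer than S100a8 with S100a9, though small distances are easier to reach for genes that vary little. Of all genes, 99.4% had a smaller standard deviation than S100a8, and 73.0% a smaller one than S100a14. The nearest genes of the others were Vamp8, Taf9 and Nudt21 for S100a14, Ssr4, Bin3 and Rps10 for S100a16, Rprl2, Hint1 and Tmem128 for S100a6, Gjb5, Ankrd10 and Arf2 for S100a4, Gspt2, Bag1 and Msra for S100a10, and Zfp511, Pfn1 and Lman2 for S100a11, at distances of 0.0374 to 0.202.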

How the data were processed

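Per the labels' protocols, RNA was extracted after maceration of the tissue, amplified, labelled with biotin and hybridised to Affymetrix mouse arrays. The deposited values are log2 expression values that the authors made with RMA (R 2.11.1), as the submitters' processing notes list; further settings and the genome build are not given in the sources used here. RMA compresses low values and so understates fold changes of weakly expressed genes. Groups came from the sample titles. Array medians were 5.61 to 5.79 over 34760 probe sets, and the number of arrays limits the precision.

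Each gene was measured by the probe set naming it alone with the highest mean over the 7 arrays (21640 probe sets named 1 gene, 1321 several, 11799 none), which gave 19937 genes. S100a11 had 2 such probe sets and the other 9 S100 genes 1 each. The test was limma's moderated one (version 3.58.1, R 4.3.3; lmFit, eBayes, two-sided), with Benjamini-Hochberg adjustment over all genes and a threshold of 0.05. An additive fit gave day over both genotypes and genotype over both days (4 residual degrees of freedom), and a fit of 4 group means the other 5 comparisons (3). The procedure was tested on simulated data.

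The S100 genes and the 18 gene lists (175 genes, 164 measured) were chosen with earlier results of these data known, and the motifs after the values were seen. The rule for named genes was the 10 S100 genes and Iqgap1, up to 4 members of each list with the smallest p for day and up to 4 that passed between genotypes, and the 3 nearest genes of each S100 gene. Mpo, Elane, Prtn3, Ly6g, Ngp, Mmp8, Retnlg, Krt5, Anxa2, Il17a, Il6, Il1f6, S100a2 and S100a5 were named in addition after their values were seen. Alternatives covered normalization, the probe set, the filter, the variance model, a replicate block, Xist signal and each array left out.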

Additional observations from a re-analysis of the deposited data

Results flagged for a closer look

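The day change of S100a3 differed between genotypes by 5.18 ± 0.58 (log2, SE, limma interaction contrast, adjusted p = 0.00877), knockout minus wild type, with day differences of -0.20 in knockout and -5.38 in wild type. The day change of S100a7a differed by 4.37 ± 0.34 (adjusted p = 0.00197), with day differences of 4.10 in knockout and -0.27 in wild type. Both rest on the single wild-type day 0 array, which was high for S100a3 (11.34) and for S100a7a (10.21).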

How the results depend on the processing

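The calls of S100a8, S100a9, S100a7a and S100a3 given above for day within a genotype, genotype at day 0 and the difference between genotypes held in every setting that could be computed. With the mean of the group-mean contrasts in place of the additive fit, the S100 genes that passed were 4 in place of 2 for day over both genotypes (S100a3 at -2.79 and S100a7a at 1.91 were added) and 3 in place of 0 for genotype over both days (S100a3 at -3.10, S100a7a at -2.35 and S100a14 at -0.71). With eBayes with trend, S100a16 also passed for day in knockout (adjusted p = 0.0435) and for genotype at day 0 (0.0336). S100a14 at day 0 lost its call in 7 of 15 settings. Each array left out in turn, the number of S100 genes that passed was 2 to 3 for day over both genotypes (3 without the wild-type day 0 array), 3 for day in knockout and in wild type, 2 to 3 for genotype at day 0, 2 for the difference between genotypes, and 0 for genotype at day 6 and over both days. Day in wild type, genotype at day 0 and the difference between genotypes have no value without the wild-type day 0 array.

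Same-numbered arrays correlated at 0.0862, 0.0365 and 0.227 in their deviations from group means, and the labels do not say that a number marks a shared animal or batch. With the replicate block, 2 S100 genes passed for day over both genotypes, 3 in knockout and 3 in wild type, 2 for genotype at day 0 (S100a14 at adjusted p = 0.0585), 2 for the difference between genotypes and 0 for genotype at day 6 and over both days.

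Over all genes, the number passing ranged from 727 to 4027 for day over both genotypes (2286 as reported), 1381 to 4027 for day in knockout (3251), 1040 to 2209 for day in wild type (1418), 682 to 4328 for genotype at day 0 (2869), 143 to 1038 for the difference between genotypes (619), 0 to 43 for genotype at day 6 and 0 to 2355 for genotype over both days (0 as reported).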
